A study of Mus musculus with 9 samples.

Results

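In mouse embryonic fibroblasts (MEFs), 68 of 47937 genes in the count table were higher in cells lacking Suv39h1 and Suv39h2 (S1S2) and lower in cells lacking G9a and Glp (G9Gl) than in wild type (WT) cells. The genes were chosen from these values themselves. Counts were scaled to counts per 1000000 of the library total (CPM), and the log2 of the genotype mean plus 0.5 CPM was compared. A member had to be at least 0.8 higher in S1S2 and at least 0.8 lower in G9Gl, with no overlap of the 3 mutant and 3 WT libraries on either side. Of 76 genes that met these limits, 8 were left out by symbol, namely 6 clustered protocadherins, 1 Zfp zinc finger gene and 1 further gene. Since both comparisons with WT selected the members, their differences are given as a description and were not tested, and both comparisons share the same 3 WT libraries. At the same limits the opposite pattern, lower in S1S2 and higher in G9Gl, was met by 127 genes.

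RNA sequencing was performed on 9 MEF libraries, 3 each from WT cells, Suv39h1/Suv39h2 KO cells and G9a/Glp KO cells. The study's methods are taken here to apply to these libraries, which they do not name singly. By those methods, the cells called WT are E1c, an Eset1-conditional clone picked for high Cre activity, and both mutants were derived from it by CRISPR/Cas9, so that all 3 genotypes carry the conditional Eset1 allele. After the disruption, a construct for tamoxifen-inducible Cre with puromycin resistance was put back, and the lines were kept in puromycin. Each mutant is 1 clone chosen by loss of the target proteins on western blots. Genotype, clone and this later handling cannot be told apart, and p-values measure only the spread between these libraries. Tamoxifen treatment and the age of the embryos are not given in the sources used here.

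Silent chromatin of mammals carries methyl groups on lysine 9 of histone H3 (H3K9). Suv39h1 and Suv39h2 place H3K9me3, chiefly at the pericentric satellite repeats, whereas G9a (Ehmt2) and Glp (Ehmt1) act as a heterodimer that places H3K9me1 and H3K9me2 in euchromatin, including at silent genes. Loss of either pair is therefore usually described in terms of genes that gain expression, and the genes described here were lower in one of the mutants.

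Library totals ranged from 21319778 to 32157623 counts. The targeted genes were still transcribed in the mutants. Suv39h1 fell from 106 to 114 CPM in WT to 38.2 to 44.0 CPM in S1S2, while Suv39h2 was at 33.5 to 35.4 CPM in WT and 52.6 to 56.8 CPM in S1S2. In G9Gl, Ehmt2 was at 51.6 to 57.5 CPM against 117 to 131 CPM in WT, and Ehmt1 at 48.3 to 51.9 CPM against 103 to 106 CPM. Of 10 fibroblast markers, 9 reached 1 CPM in WT and in S1S2 and 8 did so in G9Gl. Lum was at or near 0 in every genotype, and the means of other markers differed between genotypes in more than 1 pattern. In WT, S1S2 and G9Gl, Dcn averaged 7.31, 2.16 and 0.196 CPM, Thy1 5.04, 2.04 and 38.02 CPM, and Col1a2 2424, 393 and 2013 CPM. Vim, at 1475, 2384 and 1240 CPM, and Fn1, at 1647, 1721 and 1485 CPM, had the order of the members. Of the markers of other cell types, Ptprc and Adgre1 (leukocytes), Myod1 (skeletal muscle), Rbfox3 and Elavl4 (neurons), Krt5 (epithelium), Emcn (endothelium) and Pou5f1 (pluripotent cells) were at or near 0. Some markers were not. In WT, S1S2 and G9Gl, Tubb3 of the neuronal list averaged 25.2, 38.9 and 21.5 CPM, the same order as the members, and Map2, its next marker by level, 0.828, 0.243 and 0.908 CPM, the opposite order. Of the leukocyte list, Cd68 averaged 4.42, 3.51 and 4.37 CPM, and Cd14 2.03, 2.60 and 1.76 CPM. Krt8 reached 4.65 CPM in S1S2 alone and Krt14 4.35 CPM in G9Gl alone. In any 1 genotype, at most 1 of 6 neuronal and glial, 1 of 7 epithelial, 1 of 5 endothelial, 1 of 5 adipocyte, 2 of 6 leukocyte, 3 of 6 muscle and 0 of 4 pluripotent markers reached 1 CPM. The summed neuronal and glial list, nearly all of it Tubb3, ranged from 25.01 to 27.9 CPM in WT, 37.8 to 42.3 CPM in S1S2 and 18.3 to 26.6 CPM in G9Gl. The summed muscle list of 6 genes, nearly all of it Acta2 (smooth muscle actin), ran opposite to the members, at 258 to 282 CPM in WT, 43.0 to 46.6 CPM in S1S2 and 1013 to 1097 CPM in G9Gl. The part of these markers in the members' levels was not tested.

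The heads of 3 members with an annotated head near another gene are shown as the 300 bases around their RefSeq start (GRCm38.p6, mostly upstream of it, on the strand of the gene), with each CpG dinucleotide in capitals. CpG is the site of DNA methylation, and dense CpG marks the promoters known as CpG islands. Amigo2 (chr15:97247238-97247537, minus strand) and Pced1b (chr15:97246857-97247156, plus strand) are a pair of members that start head to head and whose first exons overlap by 58 bp. Sema5a (chr15:32244563-32244862, plus strand) starts 148 bp from a non-member, Snhg18, whose values are given with the neighbouring genes.
Amigo2: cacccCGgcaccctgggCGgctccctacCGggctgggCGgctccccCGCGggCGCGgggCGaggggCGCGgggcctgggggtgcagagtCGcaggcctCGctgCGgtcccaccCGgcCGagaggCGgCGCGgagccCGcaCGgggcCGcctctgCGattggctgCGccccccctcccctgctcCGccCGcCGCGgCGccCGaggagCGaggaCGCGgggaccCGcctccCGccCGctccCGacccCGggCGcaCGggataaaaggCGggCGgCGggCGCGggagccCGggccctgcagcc
Pced1b: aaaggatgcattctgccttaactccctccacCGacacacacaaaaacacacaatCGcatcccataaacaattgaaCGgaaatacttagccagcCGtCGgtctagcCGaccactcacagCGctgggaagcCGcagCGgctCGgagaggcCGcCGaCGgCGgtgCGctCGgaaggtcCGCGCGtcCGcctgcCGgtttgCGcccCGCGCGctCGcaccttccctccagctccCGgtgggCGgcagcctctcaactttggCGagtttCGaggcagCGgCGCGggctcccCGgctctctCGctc
Sema5a: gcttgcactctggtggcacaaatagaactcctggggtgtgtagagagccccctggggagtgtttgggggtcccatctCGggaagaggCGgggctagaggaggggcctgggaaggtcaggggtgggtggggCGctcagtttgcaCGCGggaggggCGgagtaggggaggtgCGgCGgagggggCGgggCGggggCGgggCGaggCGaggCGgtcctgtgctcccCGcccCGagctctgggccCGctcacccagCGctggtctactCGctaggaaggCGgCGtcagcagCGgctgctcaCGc
The windows, shown for their position, held 46, 35 and 23 CpG dinucleotides. RefSeq windows were matched for 45 of the 68 members, fewer than 80%, so a comparison of promoter composition over the members is void and none is drawn here.

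As a group the members were low in WT, and their summed level was higher in S1S2 and lower in G9Gl. Their counts summed to 333 to 340 CPM in the WT libraries, 1227 to 1266 CPM in the S1S2 libraries and 99.7 to 108 CPM in the G9Gl libraries. The median member had a mean of 2.42 CPM in WT, 8.46 CPM in S1S2 and 0.409 CPM in G9Gl, while the median over the 15540 genes tested was 18.8 CPM in WT, 18.6 CPM in S1S2 and 19.4 CPM in G9Gl. In WT, 20 members averaged at least 5 CPM, 35 between 1 and 5 CPM and 13 less than 1 CPM. In S1S2 47 members averaged at least 5 CPM, and in G9Gl 46 averaged less than 1 CPM.

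**Figure D1:**
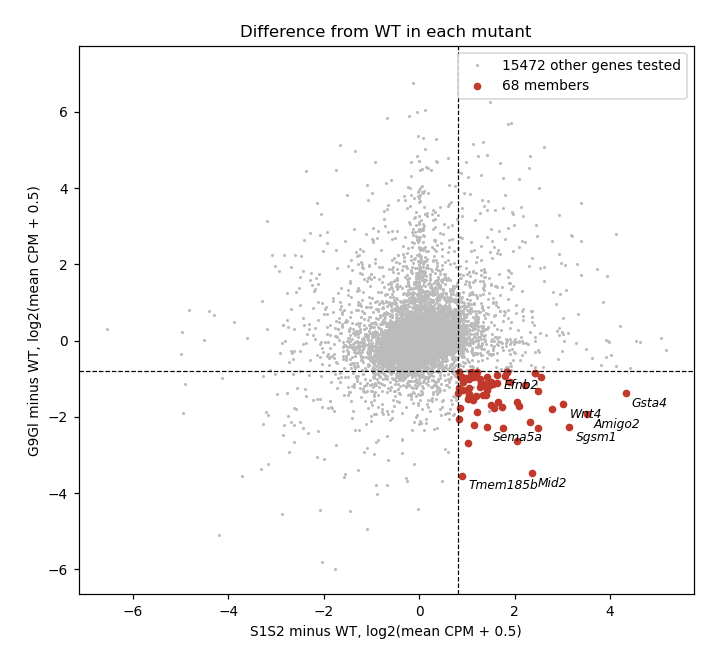
Difference from WT in log2(mean CPM + 0.5) for S1S2 (x axis) and G9Gl (y axis), for the 68 members (red) and the 15472 other genes tested (grey); dashed lines are the limits of 0.8 and -0.8 that chose the members. Among the members Gsta4 lies farthest right, at 4.32, and Tmem185b lowest, at -3.54, with some grey points beyond them, while most members lie near the corner of the limits.

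Here the rise of a member is its difference S1S2 minus WT and the fall its difference G9Gl minus WT. The rise in S1S2 ranged from 0.82 to 4.32 on the log2(CPM + 0.5) scale with a median of 1.39, and the fall in G9Gl ranged from -0.81 to -3.54 with a median of -1.29. On the same scale the medians over all genes tested were -0.03 in both comparisons. Of the genes tested, 4.68% met the S1S2 side of the rule alone and 3.30% met the G9Gl side. In plain ratios of mean CPM, the median member was 3.08-fold higher in S1S2 than in WT and 4.27-fold higher in WT than in G9Gl, with G9Gl set to its floor of 3 counts per library for 12 members at or below it. On the log2(CPM + 0.5) scale the rise was the larger of both differences for 39 members and the fall for 29. The added 0.5 CPM shrinks the fall of members near 0 in G9Gl, so this balance depends on the scale. In the plain ratios above, the larger median was that of WT over G9Gl. Differences of at least 1 on both sides were seen for 42 members, of at least 1.5 for 14, and of at least 2 for 5, which were Mid2, Clmp, Sgsm1, Gm20559 and Cd24a. All 68 members passed the low-count filter, which a gene can pass through the S1S2 libraries alone.

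**Figure D2:**
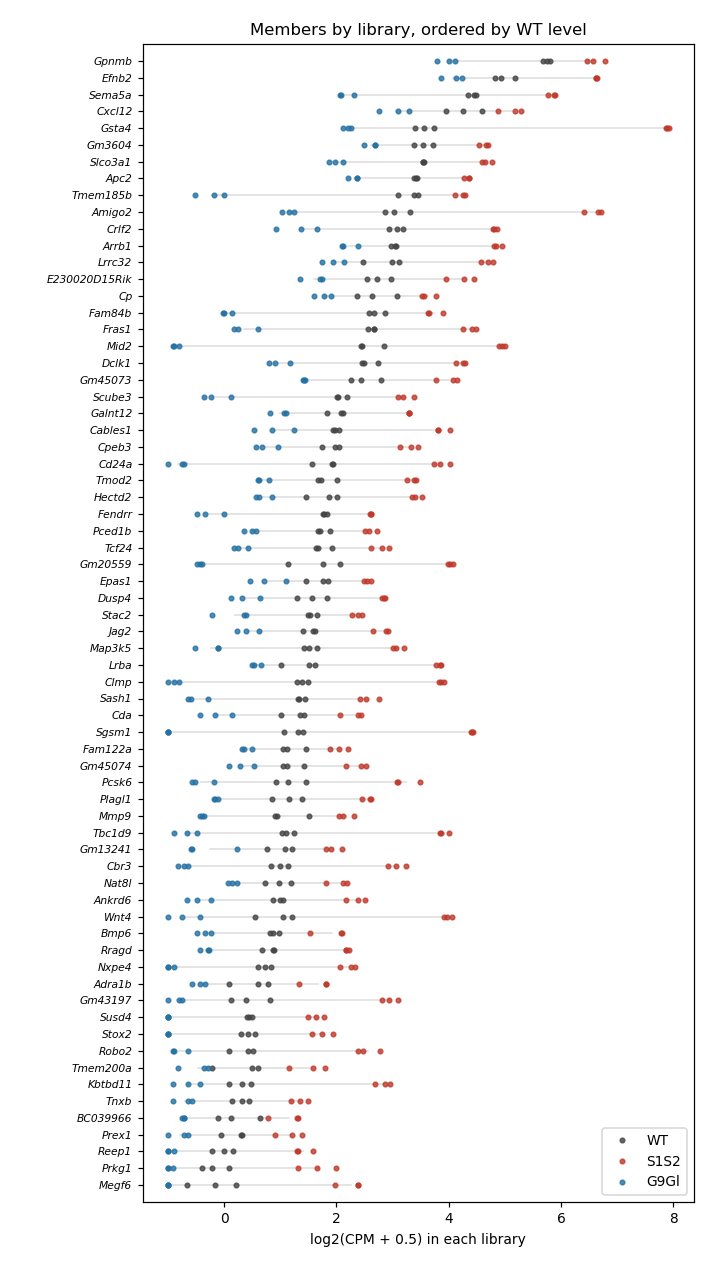
Level of each of the 68 members in each of the 9 libraries, as log2(CPM + 0.5), ordered by the WT mean; a grey line joins the G9Gl and S1S2 means. By the rule, the libraries of each mutant do not overlap those of WT. The median coefficient of variation between libraries was 15.1% for members and 7.41% for genes tested in WT. In S1S2 it was 10.3% and 6.12%. The members at the bottom reach -1, which is 0 counts, in G9Gl.

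Of the 68 members, 60 were protein-coding (88.2%, against 79.6% of genes tested), and 8 were non-coding or unconfirmed transcripts. By the roles of their products, read after the members were known, 9 act in guidance, adhesion or at the cell surface, 10 are secreted or membrane-bound signals or matrix proteins and 11 are receptors, kinases or other intracellular signalling proteins. A further 6 regulate GTPases or membrane traffic, 5 act in transcription or RNA regulation, 7 are enzymes or transporters, and 6 act in ubiquitin ligation, the cell cycle or the cytoskeleton. For 6 protein-coding members no role was assigned.

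Amigo2, a leucine-rich adhesion protein of the cell surface, stood out among the surface proteins. Its levels were 9.42, 7.66 and 6.76 CPM in WT, 104, 101 and 84.4 CPM in S1S2, and 1.55, 1.87 and 1.72 CPM in G9Gl. The difference from WT was 3.52 ± 0.16 (SE, n = 3) in S1S2 and -1.93 ± 0.14 in G9Gl. The S1S2 libraries stood far above the other genotypes, and the G9Gl libraries were close to each other. Pced1b, which starts head to head with it, had the same order with smaller differences. It averaged 2.88 CPM in WT, 5.59 CPM in S1S2 and 0.888 CPM in G9Gl.

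Axon guidance genes contributed a receptor, a transmembrane ligand of the ephrin class and a semaphorin. Sema5a, a semaphorin that steers growing axons, was at 22.0, 21.4 and 19.8 CPM in WT, 59.0, 57.9 and 54.2 CPM in S1S2, and 3.73, 4.47 and 3.67 CPM in G9Gl. It was thus well expressed in WT and its fall (-2.27 ± 0.09) exceeded its rise (1.42 ± 0.06). Efnb2, the ephrin-B2 ligand of Eph receptors, was at 30.1, 35.9 and 28.0 CPM in WT, 98.8, 97.9 and 98.2 CPM in S1S2, and 14.04, 18.4 and 16.9 CPM in G9Gl. Here the rise was the larger change, at 1.63 ± 0.10 against -0.91 ± 0.15. Robo2, a receptor for the Slit repellents, was nearly silent in WT, at 0.563 to 0.924 CPM, and reached 4.74 to 6.34 CPM in S1S2.

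Clmp, an adhesion molecule of the tight junction, and Cd24a, a small glycosylated surface antigen, were near the detection limit in G9Gl. Clmp averaged 2.13 ± 0.18 CPM (SD, n = 3) in WT and 14.2 ± 0.44 CPM in S1S2, and had 3 counts in all 3 G9Gl libraries together against 197 in WT. This is a ratio of 62.1 with an exact 95% interval of 20.95 to 304, which covers counting error only. Cd24a averaged 3.02 ± 0.49 CPM in WT and 14.1 ± 1.51 CPM in S1S2, with 6 counts in G9Gl against 280 in WT, a ratio of 44.2 (20.03 to 121). Gpnmb, a transmembrane glycoprotein of macrophages and pigment cells, had the highest WT level of any member and one of the smallest rises. It was at 50.9 to 55.7 CPM in WT, 87.6 to 110 CPM in S1S2 and 13.3 to 16.8 CPM in G9Gl. Susd4, a regulator of complement, and Megf6, a protein with EGF-like repeats, had 0 counts in G9Gl. Against a floor of 3 counts per library, Susd4 was at least 8.39-fold lower and Megf6 at least 3.83-fold lower than in WT.

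**Figure D3:**
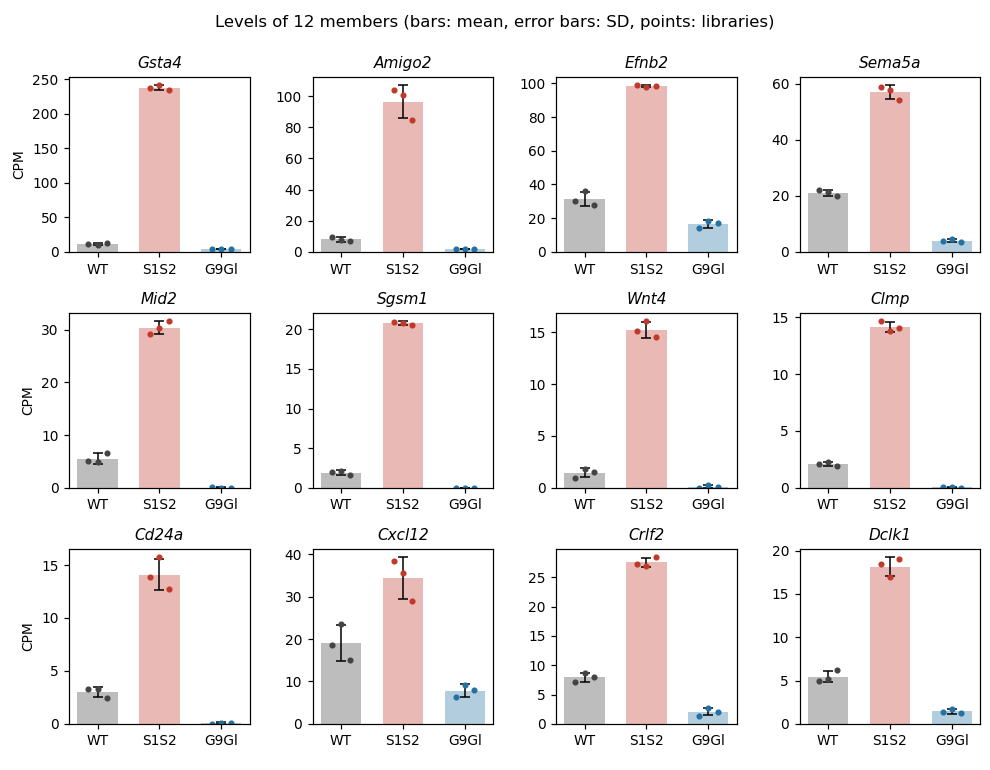
CPM of 12 named members in each library (points), with the genotype mean (bars) and SD (error bars, n = 3); each panel has its own linear axis from 0. S1S2 is the highest genotype in every panel, from 237 CPM for Gsta4 to 14.1 CPM for Cd24a, and the G9Gl bars of Mid2, Sgsm1, Clmp and Cd24a are barely visible.

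Among the secreted signals, Wnt4, a Wnt ligand that acts in kidney and gonad development, went from a trace in WT to a clear level in S1S2. It was at 0.964, 1.81 and 1.56 CPM in WT, 15.1, 16.1 and 14.5 CPM in S1S2, and 0, 0.246 and 0.0974 CPM in G9Gl. The difference was 3.02 ± 0.20 in S1S2 and -1.66 ± 0.26 in G9Gl. Cxcl12, the chemokine that attracts cells bearing CXCR4, was already at 18.5, 23.5 and 15.04 CPM in WT. It was at 38.6, 35.7 and 29.0 CPM in S1S2 and 6.23, 9.26 and 8.02 CPM in G9Gl. The highest WT library was close to the lowest S1S2 library. The WT libraries were among the most spread of the members above 5 CPM, with a coefficient of variation of 22.4%. Bmp6, a bone morphogenetic protein, was lower throughout, at 1.25 to 1.46 CPM in WT, 2.39 to 3.80 CPM in S1S2 and 0.211 to 0.352 CPM in G9Gl. Jag2, a ligand of Notch receptors, averaged 2.41 CPM in WT, 6.60 CPM in S1S2 and 0.839 CPM in G9Gl.

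Proteins that process or hold such signals were also members. Pcsk6, a proprotein convertase that activates TGF-beta family ligands, averaged 1.78 CPM in WT, 8.89 CPM in S1S2 and 0.253 CPM in G9Gl. Lrrc32, also called GARP, tethers latent TGF-beta to the cell surface and averaged 6.88 CPM, 25.2 CPM and 3.37 CPM in the same order. Scube3, a secreted EGF-repeat protein, had a larger fall than rise and averaged 3.73 CPM, 8.88 CPM and 0.406 CPM. Fras1, a basement membrane protein mutated in Fraser syndrome, was expressed in WT and nearly lost in G9Gl. It was at 5.41, 5.87 and 5.87 CPM in WT, 22.0, 20.7 and 18.6 CPM in S1S2, and 1.02, 0.634 and 0.682 CPM in G9Gl. Mmp9 (gelatinase B, which degrades matrix) and Tnxb (tenascin-X, a matrix glycoprotein) stayed low throughout, with S1S2 means of 3.99 CPM and 2.05 CPM.

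Receptors and signalling proteins formed the largest of these groups, with 11 members and a median rise of 1.39 and fall of -1.36. Crlf2, the receptor chain for the cytokine TSLP, was at 7.12, 8.65 and 7.99 CPM in WT, 27.3, 27.0 and 28.4 CPM in S1S2, and 1.41, 2.64 and 2.08 CPM in G9Gl. Dclk1, a doublecortin-like kinase that binds microtubules, was at 4.98, 5.15 and 6.20 CPM in WT, 18.5, 17.0 and 19.04 CPM in S1S2, and 1.37, 1.76 and 1.23 CPM in G9Gl. For both genes rise and fall were of nearly equal size, at 1.74 and -1.73 for Crlf2 and 1.65 and -1.60 for Dclk1. Map3k5 (the stress kinase ASK1) averaged 2.39 CPM in WT, 8.04 CPM in S1S2 and 0.346 CPM in G9Gl. Arrb1 (beta-arrestin 1, which binds activated G protein-coupled receptors) lay just inside the limit in G9Gl, at 7.36 to 7.82 CPM in WT against 3.80 to 4.75 CPM, although it was at 27.5 to 30.4 CPM in S1S2. The remaining members were Adra1b (an adrenergic receptor), Dusp4 (a MAP kinase phosphatase), Prkg1 (the cGMP-dependent kinase), Apc2 (a relative of the Wnt regulator Apc), Ankrd6, Sash1 and Stac2. Their S1S2 means ranged from 2.68 CPM for Adra1b to 19.7 CPM for Apc2.

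Members that regulate GTPases or membrane traffic were low in WT, at 0.494 to 2.14 CPM. Sgsm1, a RUN and TBC domain protein that regulates Rab and Rap GTPases, was at 1.99, 2.14 and 1.59 CPM in WT and 20.97, 20.8 and 20.5 CPM in S1S2. It had 0 counts in each G9Gl library and was thus at least 18.6-fold lower there than in WT, against the floor of 3 counts per library. Tbc1d9, another TBC domain protein, averaged 1.68 ± 0.16 CPM in WT, 14.5 ± 0.96 CPM in S1S2 and 0.125 ± 0.088 CPM in G9Gl. Lrba, a vesicle-trafficking protein whose loss causes immune deficiency, had a rise of 2.42 but cleared the G9Gl limit narrowly, at -0.84. Rragd, a Rag GTPase that recruits mTORC1 to lysosomes, Prex1, a Rac activator, and Reep1, which shapes the endoplasmic reticulum, averaged 4.07, 1.77 and 2.15 CPM in S1S2.

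Mid2, a TRIM family ubiquitin ligase that binds microtubules, had the largest smaller-of-both differences of all members. It was at 5.01, 4.95 and 6.66 CPM in WT, 29.1, 30.4 and 31.6 CPM in S1S2, and 0.0704, 0.0352 and 0.0325 CPM in G9Gl. The differences were 2.35 ± 0.13 and -3.47 ± 0.13, and the G9Gl libraries together held 4 counts against 512 in WT, a ratio of 121 (47.0 to 446). With it were grouped Hectd2 and Kbtbd11, which belong to ubiquitin ligase families, Cables1 (a Cdk-binding protein), Tmod2 (tropomodulin, which caps actin filaments) and Fam122a (an inhibitor of the phosphatase PP2A), with S1S2 means of 3.65 to 14.3 CPM apart from Mid2.

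Gsta4, the glutathione transferase that detoxifies 4-hydroxynonenal, a product of lipid peroxidation, had the largest rise of any member. It was at 11.3, 10.1 and 12.8 CPM in WT, 237, 241 and 234 CPM in S1S2, and 3.83, 4.12 and 4.28 CPM in G9Gl. The rise was 4.32 ± 0.10, or 20.8-fold in mean CPM, and the fall was -1.38 ± 0.10. Gsta4 alone held 19.01% of the members' summed CPM in S1S2, compared with 3.38% in WT. Per kilobase of exon it was also the highest member in S1S2, at 187 CPM per kb against a member median of 1.70 CPM per kb.

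The other enzymes and transporters had smaller rises. Cbr3, a carbonyl reductase, averaged 1.496 CPM in WT, 7.94 CPM in S1S2 and 0.104 CPM in G9Gl, and Slco3a1, an organic anion transporter, 11.2 CPM, 24.99 CPM and 3.48 CPM. Cda (cytidine deaminase), Nat8l (which makes N-acetylaspartate), Galnt12 (which starts O-linked glycans) and Cp (ceruloplasmin, a ferroxidase) had S1S2 means of 3.64 to 11.8 CPM. The WT libraries of Cp ranged from 4.69 to 7.92 CPM, the widest relative spread of any member above 5 CPM in its genotype (27.1%).

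In the group of transcription and RNA regulators, Plagl1, an imprinted zinc finger gene, averaged 1.71 CPM in WT, 5.39 CPM in S1S2 and 0.400 CPM in G9Gl. Epas1 (HIF-2alpha, which responds to low oxygen) was at 2.24 to 3.10 CPM in WT, 5.15 to 5.63 CPM in S1S2 and 0.876 to 1.65 CPM in G9Gl. Tcf24 (a basic helix-loop-helix factor), Cpeb3 (which binds polyadenylation elements of mRNA) and Stox2 were also members, and Stox2 had 0 counts in G9Gl.

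Protein-coding members without an assigned role were Nxpe4, Fam84b, Gm3604, Tmem200a, Tmem185b and Pced1b. On the log2(CPM + 0.5) scale, Tmem185b had the largest fall of all members. It went from 9.95, 8.08 and 10.4 CPM in WT to 0.492, 0.387 and 0.195 CPM in G9Gl, with 19.01, 18.5 and 16.9 CPM in S1S2. Its differences were 0.90 ± 0.12 and -3.54 ± 0.19, which is the reverse of the balance seen for Gsta4. In plain ratios of WT over G9Gl, Tmem185b was at 26.5-fold and Mid2 at 53.9-fold or more against the floor of 3 counts per library. Gm3604, a predicted gene, was at 9.93 to 12.7 CPM in WT, 22.8 to 25.3 CPM in S1S2 and 5.14 to 5.94 CPM in G9Gl.

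The non-coding members lay mostly at a few loci. Gm20559 (chr6:3333194-3346128, a processed transcript) was at 1.71, 2.90 and 3.68 CPM in WT, 15.7, 15.4 and 16.4 CPM in S1S2, and 0.246, 0.211 and 0.260 CPM in G9Gl. Gm43197 lies inside it on the same strand without exon overlap and averaged 0.887, 7.25 and 0.0559 CPM. In the same way E230020D15Rik, Gm45073 and Gm45074 lie inside Efnb2 (chr8:8617434-8661242) on its strand, in its introns, and averaged 18.4, 15.6 and 4.72 CPM in S1S2. Reads from unspliced Efnb2 and Gm20559 transcripts cannot be told apart from these members, so they are not separate observations. Fendrr, a long non-coding RNA needed for heart and body wall development, lay just inside the S1S2 limit, at 2.88 to 3.05 CPM in WT, 5.53 to 5.65 CPM in S1S2 and 0.211 to 0.492 CPM in G9Gl. BC039966 and Gm13241 had S1S2 means of 1.73 CPM and 3.35 CPM.

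Several members share sequence or exons with other genes. No 75-base stretch of exon, the length of a read, was shared with another gene for 41 members, and under 5% were shared for 59. More than 20% were shared for Gm13241 (68.1%), Fam84b (39.6%), Cables1 (32.3%) and Kbtbd11 (23.6%), whose values are therefore uncertain. Exons of 24 members overlap another annotated gene, on the opposite strand for 23 of them, and the source used here does not state whether strand was used in counting.

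At the edge of the rule, Arrb1, Fendrr and Lrba were the members above 5 CPM in S1S2 nearest inside a limit, with a smaller difference of 0.81, 0.82 and 0.84. Just outside lay the channel gene Trpv4 (0.79), Rapgef3 (0.78), an activator of Rap GTPases, and Syce2 (0.77), a protein of the meiotic synaptonemal complex.

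The members were spread over most chromosomes. Chromosome 8 held 9 members (13.2%, against 5.03% of tested non-members), of which 4 are Efnb2 and the transcripts inside it, and chromosome 4 held 8 (11.8% against 6.04%), while chromosome 14 held none. On chromosome 19, which held 4 members (Cpeb3, Hectd2, Fam122a and Prkg1), the median of 483 non-members was itself 0.29 higher in S1S2 and 0.18 lower in G9Gl. After subtraction of each chromosome's median, 63 of the 68 members still met the rule, and Fendrr, Lrba, Prkg1, Fam122a and Arrb1 did not.

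To see whether the change extended beyond the members, the nearest tested gene on each side of a member was examined with edgeR's quasi-likelihood test. A gene was called where its fold change reached 2 and its p, adjusted by Benjamini-Hochberg over all genes tested, did not exceed 0.01. The rule was applied to all genes, so a neighbour could not meet both limits unless it had been left out by symbol, which was the case for 1 neighbour. Of 124 neighbours, 12 were called in S1S2 against WT (9.68%, against 9.0% of all genes tested), 6 of them higher (background 4.66%) and 6 lower (background 4.34%). In G9Gl against WT 17 were called (13.7% against 10.2%), 5 higher (4.03% against 6.77%) and 12 lower (9.68% against 3.40%). In the direct comparison of G9Gl with S1S2 24 were called (19.4% against 13.1%), 6 higher and 18 lower in G9Gl. The background of this comparison was not split by direction. Without the neighbours that overlap the body of a member, 10 of 115 were called in S1S2 and 15 of 115 in G9Gl, of which 10 were lower (8.70%). Without the neighbour that met both limits, 11 were called in S1S2 (5 higher, 6 lower) and 16 in G9Gl (5 higher, 11 lower). Of 113 tested genes starting within 100 kb of a member, 10 were called in S1S2 (7 higher, 3 lower) and 15 in G9Gl (5 higher, 10 lower). Whether any of these shares differs from the background was not tested.

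**Figure D4:**
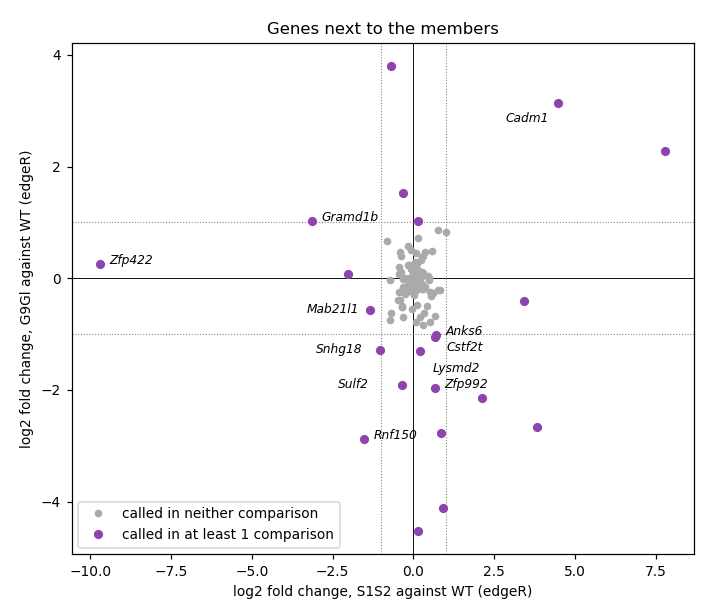
edgeR log2 fold change of genes next to a member, in S1S2 (x axis) and in G9Gl (y axis) against WT; purple points were called in at least 1 comparison, and those of at least 5 CPM in a genotype are named. 1 called neighbour is not plotted. Most neighbours lie near the origin, and called neighbours lie on all sides of it.

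Among the called neighbours of at least 5 CPM, several moved unlike the member beside them. Cadm1, an adhesion molecule next to Nxpe4, was higher in both mutants, by 4.47 ± 0.06 (log2 fold change ± SE, edgeR adjusted p = 4.91e-16) in S1S2 and 3.13 ± 0.09 (edgeR adjusted p = 7.72e-14) in G9Gl. Gramd1b, a sterol transfer protein next to Clmp, fell by 3.14 in S1S2 (edgeR adjusted p = 1.12e-08) and was 1.02 higher in G9Gl (edgeR adjusted p = 2.19e-05), opposite to Clmp in each comparison. Its G9Gl value dropped below the 2-fold limit without WT replicate 1 (0.95), WT replicate 2 (0.91) or G9Gl replicate 1 (0.86). Rnf150, next to Tbc1d9, was lower in both, with log2 fold changes of -1.51 and -2.87 (edgeR adjusted p = 4.73e-06 and 6.34e-09). Snhg18, a small nucleolar RNA host gene that starts 148 bp from Sema5a, was at 4.92 to 6.59 CPM in WT, 1.64 to 3.37 CPM in S1S2 and 1.97 to 2.498 CPM in G9Gl. It was called lower in both mutants, with log2 fold changes of -1.02 ± 0.34 (edgeR adjusted p = 0.00034) and -1.28 ± 0.14 (edgeR adjusted p = 3.16e-05), whereas Sema5a was higher in S1S2. The S1S2 call of Snhg18 was lost without WT replicate 3 (-0.91) or S1S2 replicate 3 (-0.77).

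Other neighbours passed both limits in 1 of the comparisons with WT. Zfp422, next to Cxcl12, went from 14.4 to 17.2 CPM in WT to 1 count in all 3 S1S2 libraries together (edgeR adjusted p = 1.79e-14). Mab21l1, next to Dclk1, fell by 1.33 in S1S2 (edgeR adjusted p = 2.43e-10). In G9Gl, Sulf2, an extracellular sulfatase next to Prex1, had a log2 fold change of -1.91, Lysmd2, next to Tmod2, of -1.30, and Zfp992, next to Gm13241, of -1.96 (edgeR adjusted p = 8.55e-14, 2.46e-06 and 3.08e-11). In the direct comparison of G9Gl with S1S2, Sulf2, Lysmd2 and Zfp992 were called too, with log2 fold changes of -1.56, -1.51 and -2.63, as was Zfp422, whose fitted value depends on the prior count because S1S2 held 1 count. Smaller changes in the other mutant did not reach 2-fold, such as -0.56 for Mab21l1 in G9Gl (edgeR adjusted p = 3.64e-06) and 0.67 for Zfp992 in S1S2 (edgeR adjusted p = 3.59e-06). Neighbours also moved like the member beside them, and 3 of these were singled out after their values were seen. Cstf2t overlaps the body of Prkg1 on the opposite strand, without exon overlap. It averaged 65.4 CPM in WT, 101 CPM in S1S2 and 30.8 CPM in G9Gl, with log2 fold changes of 0.66 and -1.06 (edgeR adjusted p = 6.4e-09 and 1.89e-11). Both genes lie on chromosome 19, where the median non-member was itself 0.29 higher in S1S2 and 0.18 lower in G9Gl. The fold changes of Cstf2t were not corrected for this shift. Anks6, next to Galnt12, had log2 fold changes of 0.71 and -1.02 (edgeR adjusted p = 0.000129 and 9.26e-06), of which the second fell short of 2-fold without WT replicate 1 (-0.99), G9Gl replicate 2 (-0.96) or G9Gl replicate 3 (-0.94). Gm8493, 4837 bp from Crlf2, averaged 0.172 CPM in WT, 2.47 CPM in S1S2 and 0.0225 CPM in G9Gl and was called in both (edgeR adjusted p = 1.6e-08 and 0.0062), but its G9Gl call was lost with DESeq2 (adjusted p = 0.0331), with the replicate block (edgeR adjusted p = 0.0109) and without any 1 G9Gl library, WT replicate 1 or WT replicate 2 (edgeR adjusted p = 0.0139 to 0.0286). A further 3 relatives or partners of members, next to them, were singled out after their values were seen. Gsta1, a paralog 47882 bp from Gsta4, averaged 0.011 CPM in WT, 3.36 CPM in S1S2 and 0.0676 CPM in G9Gl and was called in S1S2 (edgeR adjusted p = 3.73e-10). Cbr1, the paralog beside Cbr3, had log2 fold changes of -0.72 in S1S2 and -0.04 in G9Gl and was not called. Foxf1, the factor gene 1276 bp from Fendrr, had log2 fold changes of 0.33 and -0.62 and was not called either.

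To see whether related genes changed alike, the families of the members were examined. By symbol, 15 members fall in 9 of 19 gene families, and the other members of those families were counted by the same test. Besides Sema5a, Efnb2 and Robo2, 43 axon guidance genes were tested, of which 3 were called higher and 8 lower in S1S2, and 5 higher and 7 lower in G9Gl. Besides Wnt4, Cxcl12 and Bmp6, 119 secreted growth factors and cytokines were tested, of which 22 were called higher and 25 lower in S1S2, and 32 higher and 12 lower in G9Gl. Among 111 matrix and matrix protease genes other than Mmp9 and Tnxb, 13 were called higher and 26 lower in S1S2, and 28 higher and 13 lower in G9Gl. Over all genes tested, 724 were called higher and 674 lower in S1S2, and 1052 higher and 528 lower in G9Gl. The other 6 families hold 1 or 2 members each. In S1S2 and in G9Gl respectively, 12 solute carriers were called higher and 15 lower, and 15 higher and 7 lower (209 tested). For G protein-coupled receptors these counts were 6 and 10, and 7 and 8 (69 tested), and for small GTPases and their regulators 16 and 11, and 18 and 12 (227 tested). For other developmental transcription factors they were 9 and 8, and 8 and 10 (141 tested), for innate immune and surface antigen genes 12 and 14, and 23 and 8 (105 tested), and for imprinted genes 4 and 4, and 3 and 4 (29 tested). In the order given, the shares called in these 6 families were 12.9%, 23.2%, 11.9%, 12.1%, 24.8% and 27.6% in S1S2. In G9Gl they were 10.5%, 21.7%, 13.2%, 12.8%, 29.5% and 24.1%. No family was tested as a set. Interferon-induced genes, taken by symbol, held no member, with 45 of 109 called higher in S1S2 (background 4.66%) and 81 of 109 in G9Gl (background 6.77%).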

How the data were processed

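RNA libraries (TruSeq Stranded Total RNA Gold) were made from 9 MEF cultures. The authors deposited unscaled whole-number counts for each Ensembl gene. According to the methods of the study, reads of 75 bp were trimmed with cutadapt, STAR 2.5.2b placed them on GRCm38 under TEtranscripts settings, and TEtranscripts counted them. The annotation release is not given in the sources used here. The methods also name RNA-seq count matrices from snakePipes, used for the expression plots beside ChIP-seq. The sources used here do not say which of these counts were deposited. Under TEtranscripts, reads that map to several places can be shared among similar genes.

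The members and gene lists were chosen with earlier results of these data known. CPM used column totals. All 9 libraries (21319778 to 32157623 counts) were fitted at once with edgeR 4.0.16 in R 4.3.3 (filterByExpr, TMM, quasi-likelihood test), which kept 15540 genes. Calls needed a fold change of 2 or more and a p of 0.01 or less after Benjamini-Hochberg adjustment. DESeq2 1.42.0, other scalings and filters and left-out libraries were alternatives. SE come from the spread of log2(CPM + 0.5) for members and of log2 CPM with a prior count of 2 for other genes. A neighbour is the tested non-member starting nearest on each side. Genes were located in GENCODE (47224 of 47937 matched), of the build of the files.

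Named members were the 15 with the largest smaller difference among those of at least 5 CPM in S1S2, the 10 highest in WT, up to 4 per family, the 3 highest non-coding, the 3 nearest each side of the limits, the 3 most variable and those next to another member. Others in the text serve to account for every member. Named non-members were up to 6 called neighbours and, from families that hold members, up to 6 called genes per comparison, of at least 5 CPM in 1 genotype, and the targeted genes. A neighbour counted here is not reported by name.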

Additional observations from a re-analysis of the deposited data

Results flagged for a closer look

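Among the neighbours, family genes and targeted genes named by the rule, 8 were called in the direct edgeR comparison of G9Gl with S1S2 and lay on opposite sides of WT in the 2 mutants, where the comparison with WT had an adjusted p no larger than 0.01 for both. The log2 fold change of G9Gl against S1S2 was 4.16 for Gramd1b, next to Clmp, and -2.63 for Zfp992, next to Gm13241. Among the families that hold members it was 7.41 for Serpinf1, 10.44 for Ly6f, 5.93 for Dkk3 and 5.79 for Slc7a11, which were all higher in G9Gl, and -10.88 for Sfrp2, which had 0 counts in each G9Gl library. For Ehmt2, which was targeted in G9Gl, it was -1.60. Slc7a11 in G9Gl against WT (log2 fold change 0.81, edgeR adjusted p = 0.00168) no longer met the limit with DESeq2 (adjusted p = 0.0701) or without G9Gl replicate 1 (0.53, edgeR adjusted p = 0.0105). Sfrp2 in S1S2 against WT just missed it without WT replicate 1. The fitted values of Ly6f and Sfrp2 depend on the prior count, since 1 genotype had no counts. Cstf2t (-1.72), Anks6 (-1.72) and Gm8493 (-6.50), neighbours singled out after their values were seen, met the same criteria, and the fitted value of Gm8493 depends on the prior count too. Of the 8, Sfrp2, Zfp992 and Ehmt2 shared the order of the members, S1S2 above WT above G9Gl, and Gramd1b, Serpinf1, Ly6f, Dkk3 and Slc7a11 had the opposite order.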

How the results depend on the processing

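The number of members depended on the limits and the added constant. With differences of at least 1 there were 42 and with at least 0.6 there were 126; an added 0.25 or 1 CPM gave 89 or 47. Of the 68, 44 kept both limits under every setting other than the stricter differences and the edgeR calls, and 52 in all 9 tables without 1 library. Choosing genes by edgeR calls in both comparisons instead gave 76, a count from the same values and no test of the members. Of these 76 genes, 56 were members and 20 were not. Members not called in both comparisons included Efnb2, Gpnmb and Cxcl12. Leaving out 1 library gave 63 to 70 members. Arrb1 and Tmem200a no longer met the limits with TMM or DESeq2 scaling.

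Without a fold change cutoff, at an adjusted p of 0.05, 7599 genes passed in S1S2, 7138 in G9Gl and 8288 between the mutants, and among neighbours 65 and 70. With at least 10 counts in every library the calls were 728, 682 and 962, since genes silent in 1 genotype were removed. Calls without 1 library ranged from 1296 to 1458, 1515 to 1654 and 1981 to 2166, and over neighbours from 11 to 13 and 13 to 17. Leaving out neighbours that overlap a member or met both limits was chosen after seeing the data. Uncalled values of 2 genes changed sign when 1 library was left out, Adam22 in G9Gl (-1.755 to 3.11) and Serpinb9g in S1S2 (-4.33 to 0.77). The cause was not tested.

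Libraries with the same replicate number were not paired by the labels, and their deviations correlated at -0.07 to 0.12. A fit with this number as replicate block called 1383, 1568 and 2022 genes in place of 1398, 1580 and 2028, and 12 and 16 neighbours. At these depths 12 members were at or below 3 counts in every G9Gl library, so the size of their fall is a bound or has a wide counting interval.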
